A study of Mus musculus with 3 samples.

Results

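The genes described here are the galectins and a galectin-binding glycoprotein in macrophages sorted from mouse kidney. They were chosen by gene symbol, and all 6 named members (Lgals1, Lgals3, Lgals3bp, Lgals4, Lgals8 and Lgals9) were found among the 14811 genes of the deposited table. The data were RNA-seq libraries from 3 C57BL6/J mice, which the labels give as separate animals of a single group. Each mouse received PBS intravenously, and its kidneys were taken 1 h later, digested with enzymes and sorted by flow cytometry for macrophages. The labels give neither the age or sex of the mice nor the antibodies of the sort gate, and there was no second group. What can be given is therefore the level of each gene, its ratio to other genes of the same library, and how far the animals differ.

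Galectins are lectins that bind sugars carrying galactose, through a conserved carbohydrate recognition domain. They are made in the cytosol and leave the cell without a signal peptide. Outside the cell they cross-link glycoproteins on cell surfaces and in the matrix, and inside it several of them bind sugars that become exposed when an endosome or lysosome breaks. Galectin-3, the product of Lgals3, was long known as the macrophage marker Mac-2. Lgals3bp is no galectin itself but encodes a secreted glycoprotein that galectin-3 binds.

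Levels are normalised read counts, which are reads per gene divided by a size factor for the library. Longer transcripts collect more reads, so the order of genes and their ratios were taken as normalised reads per kb of exon. Thresholds, list medians, marker sums and the levels used to match genes for spread were not divided by length. The libraries held 50646558 to 56718534 reads over the listed genes, and 1 read was worth 0.555 to 0.806 normalised reads. In bulk libraries such as these, fewer cells that carry a transcript and less of it per cell cannot be told apart.

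All 10 macrophage markers were at a normalised read count of 1000 or more in every mouse, led per kb by C1qb and Lyz2. Tubule transcripts were present too: the proximal tubule gene Kap was at 35490, 172061 and 13511 in mice 1, 2 and 3, and the summed level of the 9 tubule markers listed was 39807, 192270 and 15557. Slc34a1, a phosphate transporter of the proximal tubule, was at 2399, 8606 and 914.8 in the same mice, while the collecting duct water channel Aqp2 was at 0, 3.88 and 0. Other listed tubule markers were not all low. Lrp2 was at 1697, 8594 and 122 in mice 1, 2 and 3, and Cubn at 78.2, 791 and 1.41. Umod was at 40.3, 598 and 998, Slc12a1 at 90.3, 812 and 4.93, and Atp6v1g3 at 1.61, 763 and 0.705, while Slc12a3 was at 10.5, 41.1 and 4.23. Endothelial markers were low, with summed levels of 133 to 1388 over 7 genes, of which Kdr and Emcn were highest per kb. Fibroblast and mural cell markers summed to 130 to 962 over 6 genes, of which Dcn and Col1a1 were highest per kb. Of 5 monocyte and neutrophil markers listed, S100a9 was at 0 in every mouse, Ly6c2 was at 1069 in mouse 1 and at 2.77 or less in both others, and Ccr2 was at 29145, 8939 and 12215 in mice 1, 2 and 3. The T cell gene Cd3e was at 0 in every mouse and the B cell gene Cd79b was at 227, 3940 and 6359.

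Lgals3, Lgals9 and Lgals1 had the highest mean levels per kb of the 6 genes in these libraries. For Lgals1 this rested on the division by length. Its mean normalised read count (2337) was under those of Lgals8 (5640) and Lgals3bp (2949). Each was above 1000 in all 3 mice, and each lay at the 93.6th percentile of all listed genes per kb or higher in every mouse. Lgals8 and Lgals3bp were present in every mouse but at levels that differed widely between animals. Lgals4 was close to absent outside mouse 1.

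Lgals3 encodes the chimera-type galectin, whose single sugar-binding domain is joined to a flexible tail through which it forms oligomers. Its normalised read count was 18220 in mouse 1, 10557 in mouse 2 and 7969 in mouse 3 (mean 12249 ± 5330, SD, n = 3). The highest value was 2.29 times the lowest. Per kb of exon, over 1858 bases, this was 6592 ± 2869 (SD, n = 3), the highest mean of the 6 genes.

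Lgals9 encodes a tandem-repeat galectin with a pair of different sugar-binding domains, known as a ligand of the inhibitory receptor Tim-3. It was at 9397, 7290 and 9764 normalised reads in mice 1, 2 and 3 (mean 8817 ± 1335, SD, n = 3). The 3 animals lay within 1.34 times of each other, the narrowest range of the 6 members. Per kb it reached 4126 ± 625 (SD, n = 3), and its percentile among all genes per kb was 97.1, 97.1 and 97.5.

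Lgals1 encodes the prototype galectin, a small protein that pairs into a dimer and is known for dampening T cell responses. The normalised read count was 1957 in mouse 1, 1437 in mouse 2 and 3618 in mouse 3 (mean 2337 ± 1139, SD, n = 3). Mouse 3 stood above both others, opposite to Lgals3, which was lowest in that animal. Because its exons span only 903 bases, the level per kb was 2588 ± 1261 (SD, n = 3), higher than the read count alone would place it.

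Lgals3bp, whose product is also called Mac-2 binding protein, was at 823 in mouse 1, 2741 in mouse 2 and 5282 in mouse 3 (mean 2949 ± 2236 normalised reads, SD, n = 3). The values of the 3 mice were well apart, with mouse 3 at 6.41 times the level of mouse 1. Per kb the gene reached 289, 963 and 1855, which put it at the 73.4th, 89.9th and 93.3rd percentile of listed genes. Mouse 3, with the most Lgals3bp, had the least Lgals3.

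Lgals8 encodes another tandem-repeat galectin, best known inside the cell for binding damaged endosomes and recruiting the autophagy machinery to them. In mouse 1 it was at 16238 normalised reads, but in mouse 2 it was at 486 and in mouse 3 at 197. These values rest on 20135, 875 and 279 reads. Exact Poisson 95% intervals were 16015 to 16464, 454 to 519 and 174 to 221. These intervals cover the counting of amplified reads alone and not the differences between animals, whose highest value was 82.6 times the lowest. The mean of 5640 ± 9179 (SD, n = 3) describes none of the mice, and without mouse 1 it was 341. Beside it, the 5 monocyte and neutrophil markers summed to 30698, 8945 and 12216 in mice 1, 2 and 3. The 6 fibroblast and mural cell markers summed to 962, 130 and 201, and the 10 macrophage markers to 850746, 612754 and 744436. Each of these sums was highest in mouse 1 and lowest in mouse 2, while Lgals8 was lowest in mouse 3. In mouse 1 most of the first sum was Ccr2 (29145) and most of the second was Dcn (906). Members of the first list did not all follow its sum. Like Lgals8, Ly6c2 (1069, 2.77 and 0.705), Plac8 (465, 0 and 0) and Csf3r (19.4, 3.33 and 0) were highest in mouse 1. None of them was higher in mouse 3 than in mouse 2. Ccr2 was higher in mouse 3 (12215) than in mouse 2 (8939), and S100a9 was at 0 in every mouse. The tubule marker sum was highest in mouse 2, and the endothelial and lymphocyte sums in mouse 3. The part of any other cell type in the Lgals8 value was not tested.

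Lgals4 encodes a tandem-repeat galectin typical of the epithelium of the gut. It had 67 reads in mouse 1, none in mouse 2 and 2 in mouse 3, equal to 54.0, 0 and 1.41 normalised reads. The exact Poisson 95% interval in mouse 1 was 41.9 to 68.6. In mouse 2 the count of 0 allows up to 1.66 normalised reads by the floor of 3 reads, and the upper end of the exact Poisson 95% interval was 2.05. Intervals and floors cover counting error only, since amplified reads carry no molecular identifiers. Detection of Lgals4 thus rested on mouse 1: the mean was 18.5 with it and 0.705 without it.

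**Figure D1:**
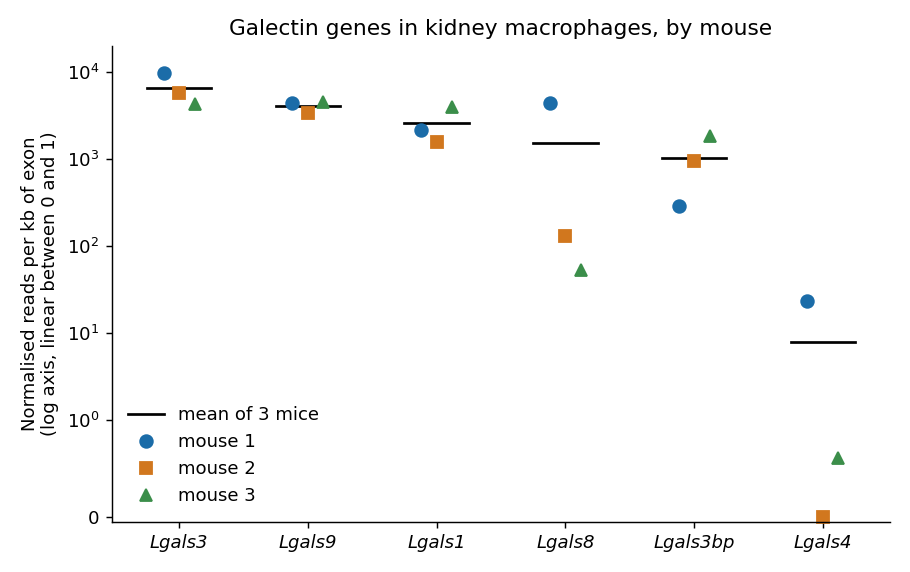
Normalised reads per kb of exon (vertical axis, log scale that is linear between 0 and 1) of the 6 genes in each mouse; points are mice and bars are means of 3 mice. Lgals3, Lgals9 and Lgals1 lie between 1591 and 9806 in every mouse, while Lgals8 runs from 53.3 to 4403 and Lgals4 from 0 to 23.3.

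By the mean level per kb the order was Lgals3, Lgals9, Lgals1, Lgals8 (1529 ± 2489, SD, n = 3), Lgals3bp (1036 ± 786, SD, n = 3) and Lgals4 (7.98 ± 13.3, SD, n = 3). The ranges over the mice overlapped for each pair of neighbours except the last, Lgals3bp and Lgals4. Lgals3 was above Lgals9 in 2 of 3 mice, with log2 ratios of 1.16, 0.74 and -0.09 in mice 1, 2 and 3, so this step in the order was not the same in every animal. Lgals9 was above Lgals1 in 3 of 3 mice, by log2 ratios of 1.02, 1.10 and 0.19.

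The place of Lgals8 depended on a single animal. Its log2 ratio to Lgals3bp was 3.93 in mouse 1 but -2.87 in mouse 2 and -5.11 in mouse 3, so Lgals8 was the higher of the pair in 1 of 3 mice. In mouse 1 Lgals8 equalled Lgals9 per kb (4403 against 4397), and in both other mice it was at rank 5 of the 6 genes. Without mouse 1, Lgals3bp took rank 4 and Lgals8 rank 5, and without mouse 3 Lgals8 came above Lgals1.

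The make-up of the galectin transcripts therefore differed between mice. Of the summed level per kb of the 6 genes, Lgals3 made up 46.5%, 48.2% and 29.0% in mice 1, 2 and 3. The share of Lgals9 was 20.9%, 29.0% and 30.9%, and that of Lgals1 was 10.3%, 13.5% and 27.1%. Lgals3 led in mice 1 and 2, and in mouse 3 the shares of Lgals9, Lgals3 and Lgals1 were within a few percent of each other. Lgals8 held 20.9% in mouse 1, 1.12% in mouse 2 and 0.361% in mouse 3, and Lgals3bp held 1.37%, 8.17% and 12.6%. The summed level itself was 21087, 11779 and 14774 normalised reads per kb, highest in mouse 1.

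**Figure D2:**
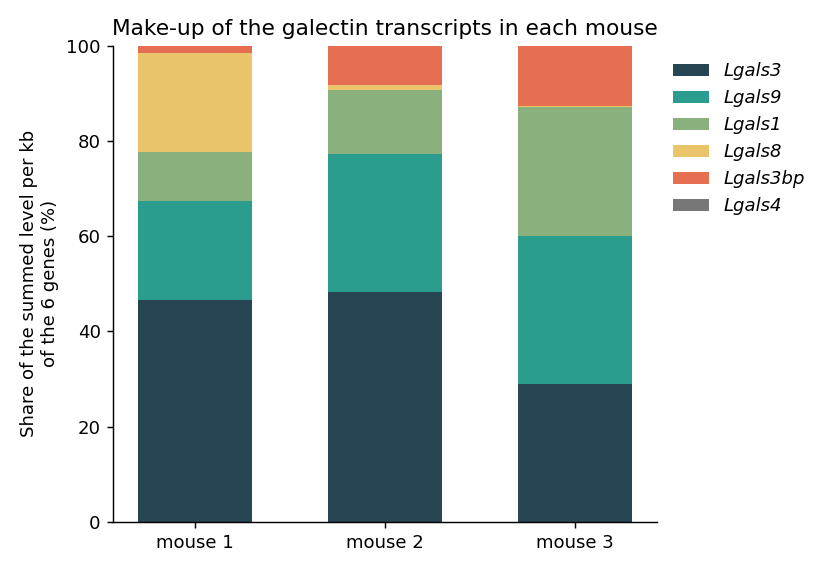
Share of the summed level per kb of exon (vertical axis, %) that each of the 6 genes held in each mouse; each bar is 1 mouse and adds up to 100%. Lgals3 holds 46.5% and 48.2% in mice 1 and 2 and 29.0% in mouse 3, and Lgals8 is visible mainly in mouse 1.

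To place the members against the galectin best known in macrophages, the log2 ratio of every gene to Lgals3 was taken within each library, per kb and with a pseudocount of 1, and tested against 0 across the whole table with limma (two-sided, Benjamini-Hochberg adjustment over 11602 genes). The SE given is limma's moderated SE, drawn toward a spread pooled over all genes. The SD of the ratios over the mice themselves was 0.63 for Lgals9 and 2.76 for Lgals8. Lgals3 is itself high, and 85.6% of the tested genes were called below it while 0.362% were called above. Of the 5 other members, 2 were called below Lgals3 and none above, so the share called below was under that of all genes. Lgals4 passed the filter for this test, a mean of 10 or more, only through mouse 1.

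Lgals8 was below Lgals3 in 3 of 3 mice, with log2 ratios of -1.16, -5.43 and -6.32 (mean -4.30 ± 1.40, SE, adjusted p = 0.0365, limma). The result missed the threshold when mouse 2 was left out (-3.74, limma adjusted p = 0.149), when mouse 3 was left out (-3.29, limma adjusted p = 0.157) and when levels were not divided by length (-3.31, limma adjusted p = 0.0840). It held without mouse 1, at a log2 ratio of -5.88 (limma adjusted p = 0.0393). Across the 8 alternatives this adjusted p spanned 2.4e-05 to 0.157.

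Lgals4 lay far below Lgals3 in 3 of 3 mice, at a log2 ratio of -11.46 ± 1.34 (SE, adjusted p = 0.00761, limma). Its size depends on the pseudocount, since mouse 2 was at 0, and the adjusted p ran from 7.4e-05 to 0.0489 over the 7 alternatives that gave a value.

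The remaining 3 members could not be separated from Lgals3 by this test. Lgals9 had a log2 ratio of -0.60 ± 0.96 (SE, adjusted p = 0.573, limma) and was lower in 2 of 3 mice. For Lgals1 the log2 ratio was -1.37 ± 1.02 (SE, adjusted p = 0.254, limma), negative in 3 of 3 mice but only -0.10 in mouse 3. Lgals3bp was lower in 3 of 3 mice, at log2 ratios of -5.08, -2.56 and -1.21 (mean -2.95 ± 1.19, SE, adjusted p = 0.0672, limma). With a prior spread that depends on the level, both Lgals1 (adjusted p = 0.0151, limma) and Lgals3bp (adjusted p = 8.5e-05, limma) were called below Lgals3. An exact sign-flip test of 3 mice cannot give a two-sided p below 0.25.

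**Figure D3:**
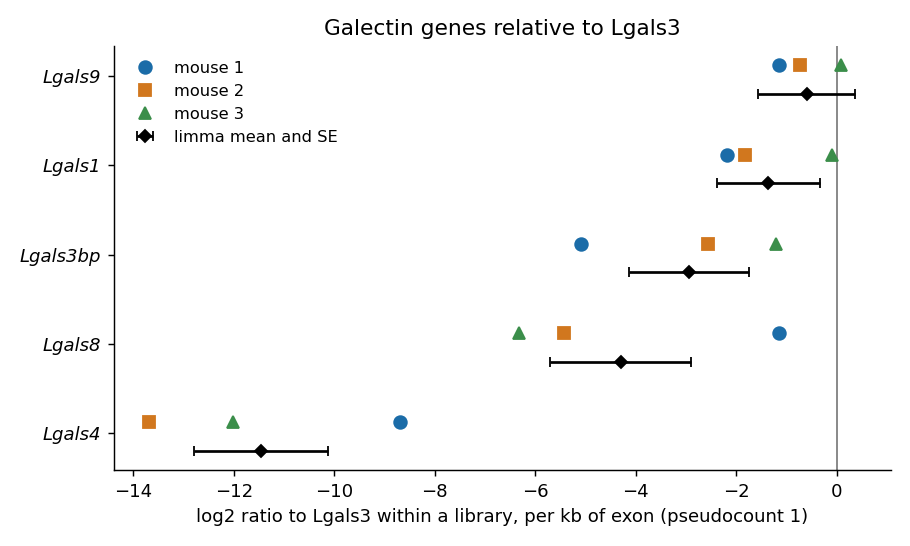
Log2 ratio of each gene to Lgals3 within a library, per kb of exon (horizontal axis); coloured points are mice, and diamonds with bars are the limma mean and moderated SE. Lgals9 lies closest to Lgals3 (mean -0.60), and mouse 1 stands apart from mice 2 and 3 for Lgals8.

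The spread between mice was set beside that of other genes at a like level, since the spread of a gene depends on its level. On the log2(normalised read count + 1) scale the SD over mice was 0.23 for Lgals9, and 13.0% of the 200 genes nearest in level had a smaller SD. Lgals1 (SD 0.68) and Lgals3 (SD 0.61) were at 29.0% and 57.0% by the same measure. Lgals9 and Lgals1 were thus steadier over the animals than most genes of their level, and Lgals3 was near the middle. For Lgals3bp (SD 1.36) the figure was 74.0%, and for Lgals4 (SD 3.04) it was 102 of the 200 genes. Lgals8 stood out with an SD of 3.36 against a median of 1.26 among its 200 nearest genes, 97.0% of which had a smaller SD.

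A level at least 10 times higher in mouse 1 than in both other mice was seen for 7.67% of the 11636 genes with a mean of 10 or more, and Lgals8 had this pattern too. Among the 4499 genes with a mean of 1000 or more, which Lgals8 reached only through mouse 1, the share was 4.42%. Lgals4 also had the pattern, but its mean reached 10 only through mouse 1, so the pattern restates the filter there. The same was true of mouse 2 for 15.3% and of mouse 3 for 7.65% of the 11636 genes, and no galectin was among either.

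**Figure D4:**
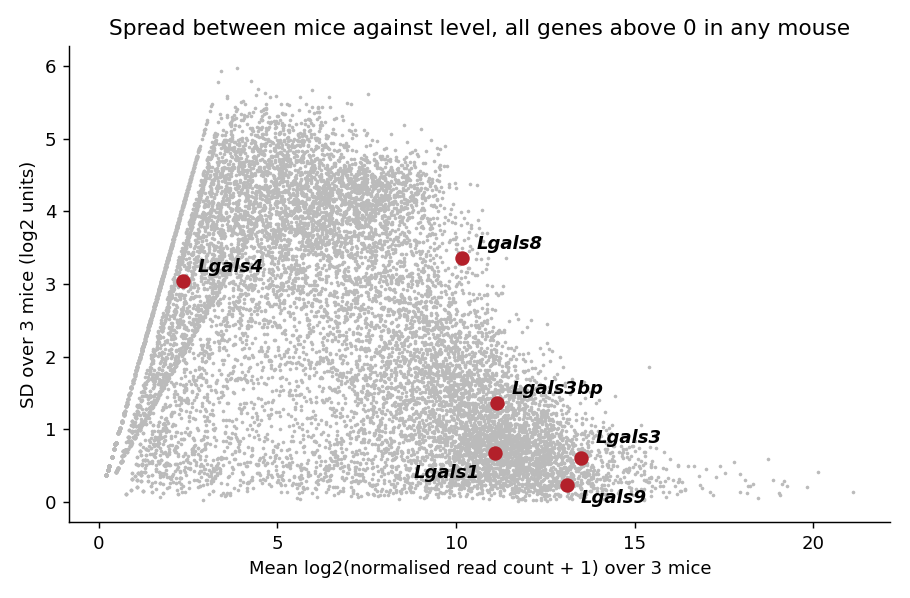
SD over 3 mice of log2(normalised read count + 1) (vertical axis) against its mean (horizontal axis); grey points are all genes above 0 in any mouse and red points the 6 members. Lgals9 lies low in the cloud (SD 0.23) and Lgals8 at its upper edge for its level (SD 3.36).

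Genes were also ranked by how close their level per kb was to each member in the same 3 libraries, as the mean absolute log2 difference over the mice. Symbols with Gm before a number, ending in Rik or starting with a digit were left out, as were genes without an exon length. With 3 points and a table of 14811 genes, close matches arise readily, and the measure says nothing of shared function or control. The closest to Lgals3 were Gngt2 (0.17) and Pnp (0.17). Psma4 (0.09) and Ap2s1 (0.10) were nearest to Lgals1, and Tma7 (0.06) and Cetn3 (0.08) to Lgals9. Erp44 (0.09) and Cfl2 (0.14) were nearest to Lgals3bp. No ranked gene came as near to Lgals8, for which BC017643 (0.49) and Ndufs1 (0.64) were closest.

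Of 7 further family genes looked up, 1 was listed in the table: Lgalsl, which encodes a galectin-like protein, at 7.26, 5.55 and 0 normalised reads in mice 1, 2 and 3. Lgals2, Lgals6, Lgals7, Lgals12, Grifin and Clc were not analysed here.

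Many glycoproteins that galectins are known to bind had transcripts in the same libraries. Of 17 counter-receptor genes looked up, 16 were listed, and 10 of these reached 1000 in each of the mice, against 14.7% of all listed genes. Their median mean level was 3776 normalised reads, beside 254 over all listed genes. Neither figure takes account of length, so long genes rank higher by both. Ptprc, which encodes the leukocyte phosphatase CD45, was highest per kb at 5258 and had 101038, 63998 and 123816 normalised reads in mice 1, 2 and 3. The lysosomal membrane glycoproteins Lamp2 (4916 per kb) and Lamp1 (2101 per kb), whose sugar chains face the lysosome interior, followed. These levels use the union of exons, 18313 bases for Ptprc and 9552 for Lamp2. Their longest transcripts have 5740 and 3604 bases, against 1858 and 1419 for Lgals3 by the same 2 measures. The place of Ptprc and Lamp2 against Lgals3 thus depends on the length used.

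Havcr2, which encodes the galectin-9 receptor Tim-3, was at 1917, 4328 and 3773 normalised reads, present in each mouse beside Lgals9. Mertk, a phagocytic receptor for which galectin-3 has been described as a bridging ligand, was at 6396, 4530 and 1710, in the same order over the mice as Lgals3. Trem2, a lipid-sensing receptor, and Cd7, a galectin-1 receptor of T cells, were at 0 in every mouse. Pdpn was at 12.9 in mouse 1 and at 0 in both others. Of the 13 counter-receptors tested against Lgals3, 6 were called below it and none above, beside 85.6% of all genes called below. Havcr2 and the names in the preceding sentences other than Ptprc, Lamp1, Lamp2, Cd7 and Trem2 were picked after their values were seen.

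The enzymes that build the galactose-bearing sugar chains, or cap them, ranged from high to nearly undetected. All 12 were listed, 4 reached 1000 in each mouse, their median mean level was 868, and 10 were called below Lgals3 with none above, a share near the 85.6% of all genes called below. St3gal6, a sialyltransferase that caps galactose, led per kb at 3543 and was even over the mice at 20992, 18276 and 26338 normalised reads. Mgat2, needed for complex N-glycans, was at 1042 per kb and Gcnt1, which starts the core branch of O-glycans, at 738 per kb. Mgat5, whose branched N-glycans are preferred galectin ligands, was at 236, 930 and 1529 normalised reads in mice 1, 2 and 3, lowest in mouse 1, and St6gal1, whose sialic acid blocks galectin binding, was at 781, 886 and 7.75. These last 2 genes were also picked after their values were seen.

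Partners of the intracellular role, which act on broken endosomes and lysosomes, were present at moderate and uneven levels. Of 15 genes looked up, 12 were listed, 1 reached 1000 in each mouse (14.7% of all listed genes did), 8 reached 10 (44.4% of all), and their median mean level was 1429. In the ratio test 9 of 11 were called below Lgals3 and none above, again near the 85.6% of all genes. Gabarapl2, an autophagosome protein, was highest per kb at 1132, with 1835, 3071 and 2988 normalised reads in the 3 mice. Tbk1, a kinase that acts on autophagy receptors, was at 6636, 593 and 5018, and the autophagy receptor gene Sqstm1 at 1972, 842 and 5605. Both differed from Lgals8, which was high in mouse 1 alone. The lysosomal transcription factor gene Tfeb, at 649, 8.88 and 4.23, and the autophagy gene Atg16l1, at 1532, 152 and 2.82, were also high mainly in mouse 1, where 7.67% of all genes tested for this were at least 10 times above both other mice. Map1lc3b (8699, 3170 and 333) and Pdcd6ip (3151, 2038 and 273) were highest in mouse 1 too. Calcoco1 was highest in mouse 2, at 36.3, 514 and 1.41. Prkaa1 (35.5, 97.7 and 3631), Mtor (60.5, 1014 and 1852) and Tax1bp1 (542, 2850 and 1417) were lowest in mouse 1. Tfeb, Atg16l1 and the genes named after them were picked after their values were seen.

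**Figure D5:**
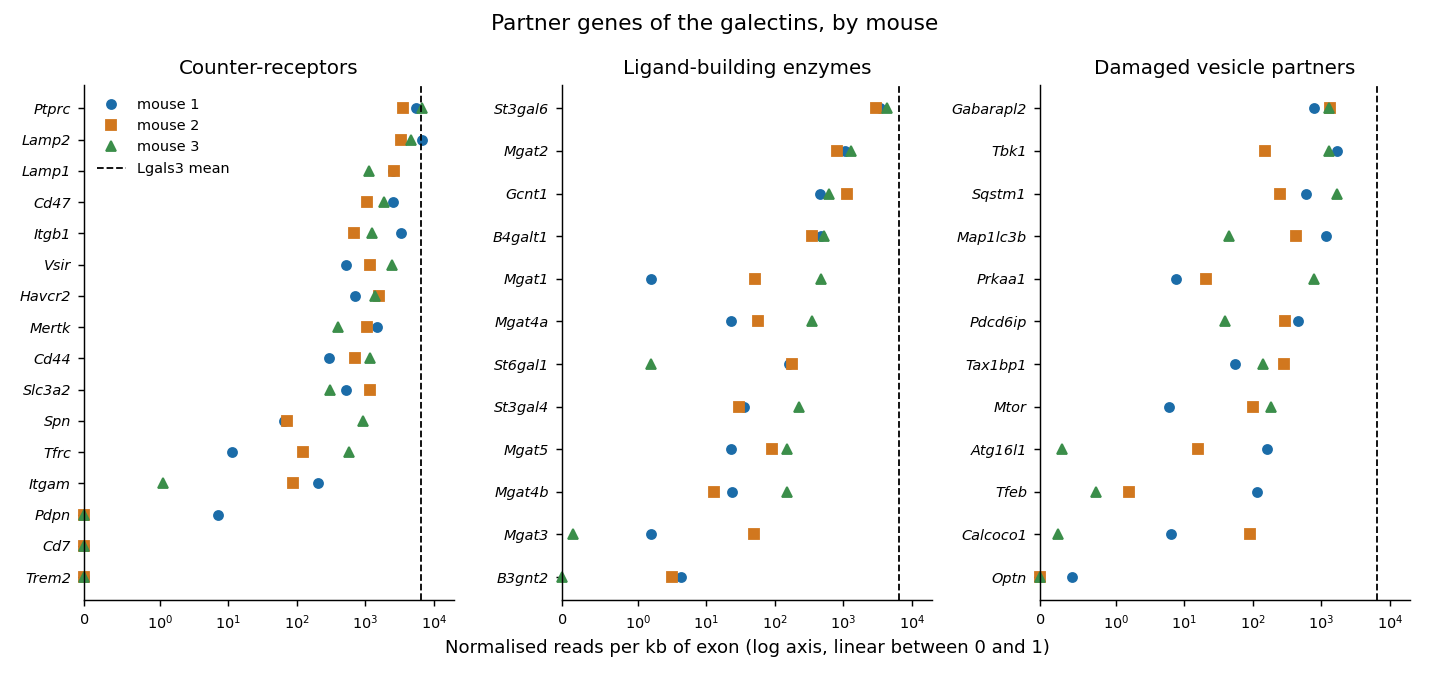
Normalised reads per kb of exon (horizontal axis, log scale that is linear between 0 and 1) of the counter-receptors, the ligand-building enzymes and the damaged vesicle partners in each mouse; the dashed line is the Lgals3 mean of 6592. With length taken as the union of exons, Ptprc, Lamp2 and St3gal6 come closest to the line, and Trem2 and Cd7 are at 0 in every mouse.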

How the data were processed

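Per the labels' protocols, cDNA was amplified with SMART-seq V4, a full-length kit for low input, and libraries were made from 10 ng with 8 cycles of PCR. The signal deposited per gene is a scaled read count, made with HTSeq 0.5.4 and DESeq 1.18.0 on mm9 per the submitters' processing notes. Neither aligner nor annotation is named by the sources used. The lowest deposited value was exactly 1. After 1 was subtracted, 100% of the values were, within 0.05 of a step, whole multiples of 1 step for each library, which gave reads, depth and floors of 1.66 to 2.42 normalised reads. Exon lengths (union of exons) came from GENCODE M21 by gene identifier for 99.6% of genes; its build is later than mm9, so no coordinates are given. The ratio test used limma 3.58.1 in R 4.3.3 (intercept only, mean of 10 or more). It was also run on simulated data, with noise drawn independently for each gene. That run did not cover the error that all ratios share through Lgals3. Other steps used Python 3.11.15 with pandas 2.3.3.

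The members and gene lists were chosen with earlier results of these data known. Genes named were the 6 members, the 2 nearest genes in level to each member that reached 10 in all mice, the 3 highest per kb of each partner list, the 2 highest of each cell type list and those at 0 in every mouse. Exceptions are stated. Among cell type markers, Aqp2, Umod, Lrp2, Cubn, Slc12a1, Atp6v1g3, Slc12a3, Plac8 and Csf3r were picked after their values were seen. Vsir is listed under an older symbol.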

Additional observations from a re-analysis of the deposited data

How the results depend on the processing

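With a single group of 3 mice, the number of mice limits every comparison. The ratio of Lgals8 to Lgals3 lost its call without division by length (log2 ratio -3.31, limma), and leaving out each mouse moved it between -5.88 and -3.29, with the call lost without mouse 2 and without mouse 3. With a mean-dependent prior the ratios were unchanged and the calls of Lgals1 (-1.37) and Lgals3bp (-2.95) were gained, and 123 genes were called above Lgals3. Against 42 above and 9928 below in the fit reported, leaving out each mouse gave 12 to 20 genes above and 5000 to 6064 below, where fewer samples were fitted. All 5 ratios kept their direction under every alternative that gave a value; Lgals4 gave none without mouse 1, since its mean then fell under the filter. Of the 5 neighbour steps in the order, 4 held without division by length, and 4 to 5 held when each mouse was left out. The step that failed without division by length was that from Lgals1 to Lgals8, and Lgals1 then also came below Lgals3bp. Under 3 other scalings, brought to the same geometric mean size factor, the mean level of each gene moved by less than 1 SD. That limit says little for Lgals8 and Lgals4, whose SD exceeded their mean. Under these scalings the mean ran from 4976 to 5646 for Lgals8 and from 16.2 to 18.5 for Lgals4. Leaving out each mouse gave 341 to 8362 for Lgals8 and 0.705 to 27.7 for Lgals4. The planned count-model alternative was not run. No paired analysis was possible because there is only 1 group.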
